A study of Mus musculus with 4 samples.

Results

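The replication-dependent histone genes of mouse chromosome 13 were read in maps of accessible chromatin from mpkCCD cells (clone 11), a mouse line of the cortical collecting duct. Members were the protein-coding genes between 21.5 and 24.0 Mb of chromosome 13 (mm10, RefSeq annotation) whose symbols begin with Hist1h or with H1f, H2ac, H2bc, H3c or H4c, and 53 of the 21887 annotated protein-coding genes met this rule. The choice used names and positions and no measured value. The 53 genes comprised 6 H1, 13 H2A, 14 H2B, 9 H3 and 11 H4 genes, with a median length of 488 bp. They fell into 4 blocks separated by more than 100 kb, with 17 genes in the first block (118 kb long), 5 in the second (8.54 kb), 29 in the third (233 kb) and 2 in the last (1.19 kb). H4bc24 lies beside the first block under a name that the prefixes do not match, and was counted among the neighbours.

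ATAC-seq, in which the transposase Tn5 inserts adapters into exposed DNA, was applied to 4 libraries of 50000 cells each. All cells were grown to confluence on permeable supports and then placed in medium free of serum and hormones. Cells of 2 libraries received dDAVP, which acts like vasopressin at the V2 receptor, at 0.1 nM, and cells of the other 2 received its vehicle, both for 30 minutes. Nothing in the labels says that libraries of one treatment were separate cultures, and p-values measure the spread between these libraries, which may be technical.

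Replication-dependent histone genes supply the core histones H2A, H2B, H3 and H4 and the linker histone H1 that package newly copied DNA, and they are transcribed in S phase. Their short, mostly intronless messages end in a stem-loop bound by Slbp in place of a poly(A) tail, and their transcription is organised by Npat, a target of cyclin E and Cdk2, in nuclear histone locus bodies. Genes of H2A and H2B often stand head to head around one shared promoter.

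The promoters below are shown because each histone class has its own arrangement of known elements and because H1f1, H1f6, H2bc1 and H4c1 depart from their class in the accessibility described later. Each runs 5′ to 3′ on its gene's strand from 250 bases before the annotated start to 50 bases after it, from RefSeq on GRCm38.p6 (mm10). Capitals mark every match, on either strand, to any of 5 motifs. The TATA box, bound by the basal transcription machinery, was searched as TATAAA. The CCAAT box is the element bound by the factor NF-Y. The octamer of H2B promoters, bound by Pou2f1, was searched as ATTTGCAT. The AC box known from linker histone promoters was searched as AAACACA. The element of H4 promoters bound by Hinfp was searched by its core, GGTCCG. H1f4 (chr13:23622509-23622808, minus strand), H1f1 (chr13:23763418-23763717, plus strand) and H1f6 (chr13:23695561-23695860, plus strand) are linker histone genes. H2bc12 (chr13:22035571-22035870, plus strand) shares its promoter with H2ac12, and H2bc1 (chr13:23934107-23934406, minus strand) shares its promoter with H2ac1. H3c2 (chr13:23752095-23752394, plus strand), H4c4 (chr13:23581318-23581617, plus strand) and H4c1 (chr13:23761200-23761499, minus strand) are core histone genes.
H1f4: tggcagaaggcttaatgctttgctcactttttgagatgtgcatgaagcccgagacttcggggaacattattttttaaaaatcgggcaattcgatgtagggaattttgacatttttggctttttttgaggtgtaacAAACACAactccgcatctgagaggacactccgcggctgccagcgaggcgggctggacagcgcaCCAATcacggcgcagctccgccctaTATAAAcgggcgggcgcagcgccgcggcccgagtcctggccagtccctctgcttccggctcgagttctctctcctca
H1f1: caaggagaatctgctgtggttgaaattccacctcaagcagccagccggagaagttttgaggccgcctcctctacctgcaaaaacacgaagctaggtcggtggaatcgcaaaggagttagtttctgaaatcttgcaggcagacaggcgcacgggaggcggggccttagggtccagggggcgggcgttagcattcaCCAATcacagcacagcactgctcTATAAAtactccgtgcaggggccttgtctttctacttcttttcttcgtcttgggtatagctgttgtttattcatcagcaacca
H1f6: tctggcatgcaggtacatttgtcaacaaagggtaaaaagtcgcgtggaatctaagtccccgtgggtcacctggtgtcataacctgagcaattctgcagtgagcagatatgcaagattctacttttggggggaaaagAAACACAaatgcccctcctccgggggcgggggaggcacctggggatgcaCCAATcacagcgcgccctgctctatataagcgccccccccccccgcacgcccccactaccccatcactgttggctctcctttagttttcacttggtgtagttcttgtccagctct
H2bc12: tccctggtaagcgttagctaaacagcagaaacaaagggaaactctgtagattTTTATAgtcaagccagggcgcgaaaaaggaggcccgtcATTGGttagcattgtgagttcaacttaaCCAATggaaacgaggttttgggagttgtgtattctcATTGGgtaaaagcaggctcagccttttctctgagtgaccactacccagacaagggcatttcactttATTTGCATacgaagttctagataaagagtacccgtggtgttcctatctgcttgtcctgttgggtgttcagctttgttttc
H2bc1: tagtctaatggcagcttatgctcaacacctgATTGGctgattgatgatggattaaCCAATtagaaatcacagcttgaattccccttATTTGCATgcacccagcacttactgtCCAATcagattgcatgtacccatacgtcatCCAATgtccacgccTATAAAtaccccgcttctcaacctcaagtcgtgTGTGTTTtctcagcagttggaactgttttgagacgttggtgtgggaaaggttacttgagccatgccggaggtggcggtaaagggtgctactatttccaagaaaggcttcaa
H3c2: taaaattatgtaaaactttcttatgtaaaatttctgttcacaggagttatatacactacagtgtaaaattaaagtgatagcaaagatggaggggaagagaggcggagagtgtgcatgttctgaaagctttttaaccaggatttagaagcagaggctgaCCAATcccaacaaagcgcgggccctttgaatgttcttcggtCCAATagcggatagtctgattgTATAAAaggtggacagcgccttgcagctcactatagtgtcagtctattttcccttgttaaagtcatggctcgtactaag
H4c4: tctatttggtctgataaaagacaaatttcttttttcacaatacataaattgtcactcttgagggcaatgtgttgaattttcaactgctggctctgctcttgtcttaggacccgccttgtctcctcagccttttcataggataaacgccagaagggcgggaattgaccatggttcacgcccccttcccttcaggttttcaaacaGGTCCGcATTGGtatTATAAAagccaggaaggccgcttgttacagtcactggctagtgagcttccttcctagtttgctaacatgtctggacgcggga
H4c1: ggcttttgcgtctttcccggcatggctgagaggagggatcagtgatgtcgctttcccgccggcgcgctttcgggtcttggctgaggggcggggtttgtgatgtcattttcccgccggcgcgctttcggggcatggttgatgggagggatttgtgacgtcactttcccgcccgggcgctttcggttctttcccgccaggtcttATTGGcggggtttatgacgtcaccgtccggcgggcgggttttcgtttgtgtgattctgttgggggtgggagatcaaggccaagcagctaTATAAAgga

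Promoter entries existed for 50 of the 53 members and for 17442 other protein-coding genes. A CCAAT match lay in 84% of the histone promoters and in 38.9% of the others, and 70% of histone promoters against 13.3% of the others held at least 2 matches. All 13 H2A, all 13 H2B and all 7 H3 promoters held 2 or more, and all 6 H1 promoters held at least 1, against 3 of 11 H4 promoters. The TATA box was found in 62% of histone promoters and in 13.2% of the others. Matches counted anywhere in the window. The match farthest downstream lay at a median of -27.5 in H1, -32 in H2A and -31.5 in H3 promoters, relative to the start. Its positions ran from -33 to -26 in H1, from -142 to 30 in H2A and from -147 to -29 in H3 promoters. In H2B promoters the median was -190, with positions from -212 to -10, and in H4 promoters positions ran from -250 to 41. Windows of head-to-head H2A and H2B genes overlap, so a match of any motif there can count for both genes. The octamer was found in 5 H2A and 5 H2B promoters, 20% of the 50, and in 1.66% of the others.

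The AC box was found in 9 histone promoters (18%), against 6.10% of the others. Of the 6 H1 promoters 5 held it, between 112 and 122 bases before the start, and H1f1 was the exception. GGTCCG was found in 12 histone promoters (24%), against 10.5% of the others. It was present in 10 of 11 H4 promoters, at 46 or 47 bases before the start in 6 of them, and had no match in H4c1. In 1 histone promoter the matches of 2 motifs overlapped. A match is a description of letters, and no binding was measured here.

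The interval of the histone genes held 233 and 177 called peaks in the dDAVP libraries, against 311 and 173 in the vehicle libraries. The whole lists held 291454 and 205771 peaks with dDAVP and 393956 and 206972 with vehicle, so vehicle replicate 1 had by far the longest list. The lists hold positions alone, without heights or read depth. Of the marker genes of collecting duct principal cells, 6 of 8, among them Aqp2, Scnn1a and Gata3, had a peak within 1 kb of a gene end in all 4 libraries, and Avpr2 and Tfap2b had one in some libraries. Of intercalated cell markers 3 of 4, of proximal tubule markers 1 of 4 (Lrp2), of fibroblast and endothelial markers 2 of 4 (Col1a1 and Kdr), and of thick limb and leukocyte markers 0 of 2 each were open in all 4 libraries. Umod, Col3a1, Ptprc and C1qa had a peak in no library. Over all protein-coding genes 65% (14219 of 21887) had such a peak in all 4 libraries, so these small counts do not set a cell type apart. A peak called in bulk cells does not tell a few cells with a very open site from many cells with a less open one, and the share of cells in S phase was not measured.

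Nearly all histone genes had a called peak near a gene end, counting peaks that belong to a neighbour. A called peak lay within 1 kb of a gene end of 53 and 53 members in the dDAVP libraries and of 53 and 52 members in the vehicle libraries. In all 4 libraries together 52 of 53 members (98.1%) had one, whereas over all protein-coding genes the share was 65% (14219 of 21887), and it was 64.9% of the genes outside the members. Among the 1528 other protein-coding genes no longer than 1000 bp, 181 (11.8%) had a peak in all 4 libraries. Those genes had a median length of 933 bp, 69.2% of them had a peak in no library, and they were not matched to the members by kind of gene. The member without one in vehicle replicate 2 was H1f6, whose peaks in the dDAVP libraries lay in the region of H4c3. All members of classes H2A, H2B, H3 and H4 and of blocks 1, 2 and 4 had one in every library.

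**Figure D1:**
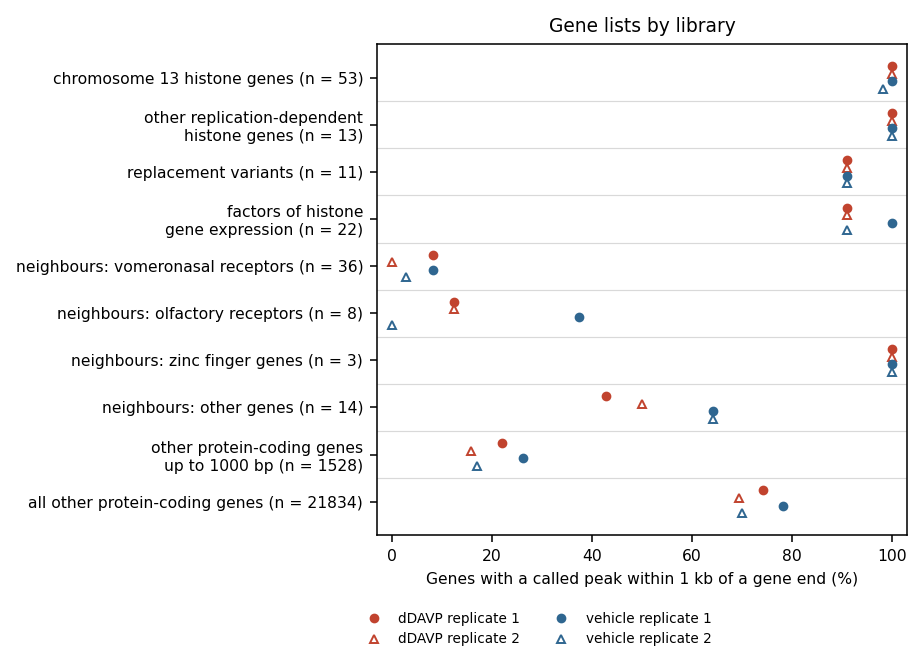
Share of genes (%) with a called peak within 1 kb of a gene end, for the chromosome 13 histone genes and lists set beside them, with 1 point per library. The histone genes sit at 98.1 to 100%, the vomeronasal receptors of the same interval at 0 to 8.33%, and all other genes at 69.3 to 78.1%.

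The annotated start itself lay inside a peak in all 4 libraries for 46 of the 50 members with a promoter entry (92%), against 52.6% over all genes with an entry. The 4 exceptions were H1f6, H2bc1 and H2ac1, whose starts lay in a peak in 0 libraries, and H2ac4, whose start lay in a peak in dDAVP replicate 2 and vehicle replicate 2. The peaks of H2ac4 in dDAVP replicate 1 (417 bp) and vehicle replicate 1 (432 bp) began downstream of the start, and the peaks of 563 bp in dDAVP replicate 2 and 504 bp in vehicle replicate 2 included it. H1f6, H2bc1 and H2ac1 encode the testis histones H1t, TH2B and TH2A.

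Peaks covered a large part of the gene bodies. The median member had 89.5% of its body inside called peaks, and the median of all other genes, which are far longer (median 17222 bp), was 5.10%. At least 90% of the body was covered in 23 of 53 members (43.4%), against 31 of the 1528 other genes no longer than 1000 bp (2.03%). All 11 H4 genes and 4 of 6 H1 genes reached 90%, as did 3 of 13 H2A, 4 of 14 H2B and 1 of 9 H3 genes. The annotated far end lay inside a peak in all 4 libraries in 10 of 50 members, namely 4 H1 and 6 H4 genes, and in 0.957% of other genes with an entry. Replication-dependent histone genes outside chromosome 13 were covered further. Of these, 12 of 13 (92.3%) reached 90% of the body, with a median of 100%. Their far end was covered in 8 of 11 genes with an entry (72.7%).

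**Figure D2:**
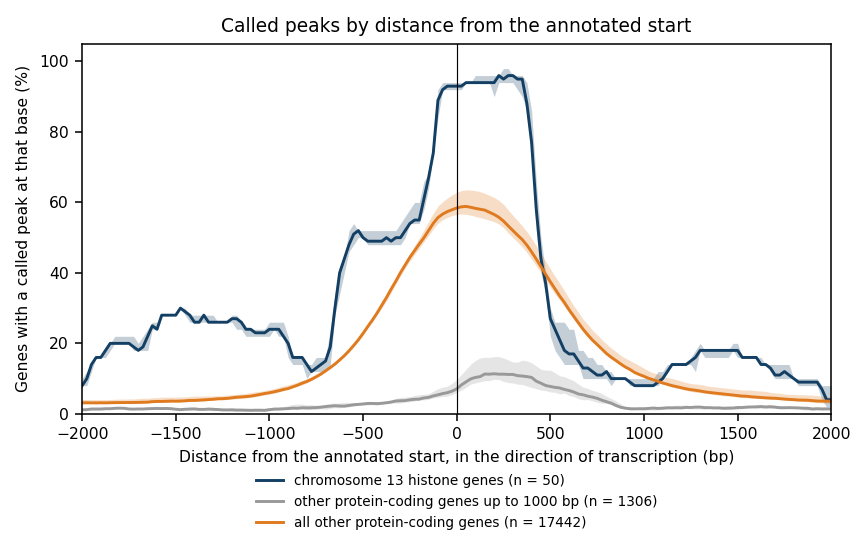
Share of genes (%) with a called peak at each distance (bp) from the annotated start, in the direction of transcription; lines are medians of the 4 libraries and bands their range. Histone genes stay at 93% at the start and 96% at 300 bp and drop to 27% at 500 bp, while all other genes fall gradually from 58.4% at the start to 37.5% at 500 bp.

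Aligned at their starts, 92% and 94% of the histone genes lay in a peak at the start in the dDAVP libraries and 92% and 94% in the vehicle libraries. The plot of peaks by distance from the start shows a plateau over the body of the histone genes with steep edges. At 300 bp into the gene the median over libraries was 96% of histone genes against 52.0% of other genes, and at 500 bp it was 27% against 37.5%. Upstream, 54% of histone genes and 44.4% of other genes had a peak at 250 bp before the start. Values at neighbouring distances come from the same peaks and are not independent.

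Among the chromosome 13 members, the position of the downstream edge differed by histone class. It was read for members with models of at most 1000 bp and a start inside a peak in all 4 libraries, from the peak over the start in each library, and is given as the median over libraries relative to the annotated gene end. By this median the peak stopped before the gene end in H2A (11 of 11 genes), H2B (9 of 9) and H3 (7 of 7). In single libraries H2ac13 (20 bp) and H2ac11 (34 bp) ran past it in dDAVP replicate 2, and H2ac12 did so in dDAVP replicate 2 (110 bp) and vehicle replicate 1 (3 bp). In 4 of 5 H1 genes and 9 of 11 H4 genes the peak ran past the gene end. By library, H4c12 stopped short in dDAVP replicate 1 (-31 bp) and vehicle replicate 1 (-32 bp). So did H4c9 in both dDAVP libraries (-55 and -40 bp) and H4c2 in dDAVP replicate 1 (-54 bp). H4c1 ran 20 bp past its end in vehicle replicate 1. The measure also depends on gene length, with a median of 406 bp in H4, 504 bp in H2A, 486.5 bp in H2B, 496 bp in H3 and 760.5 bp in H1. The 4 long models, H2bc22, H2bc23, H2bc4 and H2bc6, were left out of these counts. Outside chromosome 13 the edge was not read. There the far end lay in a peak in all 4 libraries in 8 of 11 histone genes, most of them H2A, H2B or H3. The class difference is therefore described for this cluster alone.

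**Figure D3:**
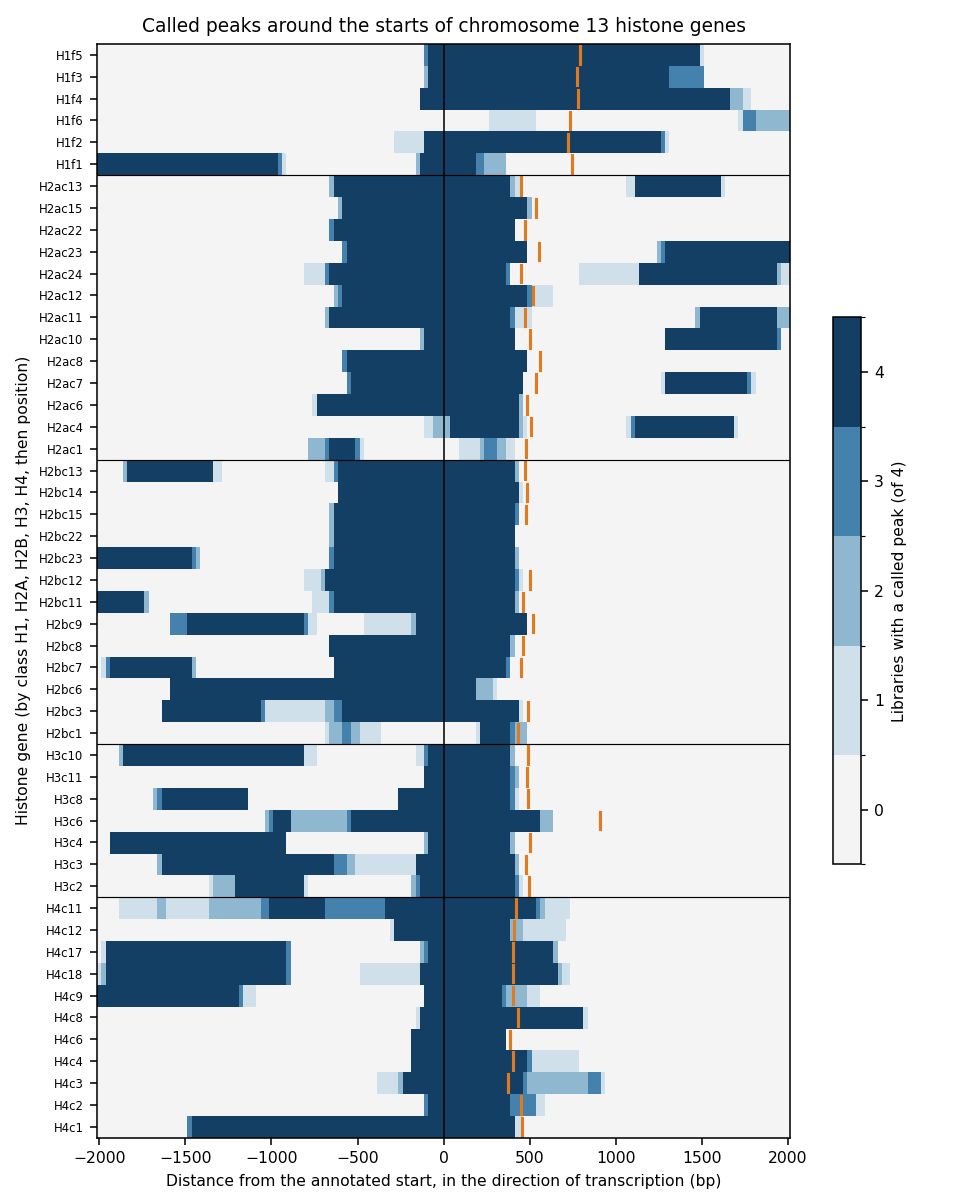
Number of libraries (0 to 4, colour) with a called peak at each distance (bp) from the annotated start of each histone gene, in the direction of transcription; the orange mark is the annotated gene end where it falls in the window. Dark blue (all 4 libraries) over the starts of H2A, H2B and H3 genes stops short of the orange mark, the peaks of 4 H1 genes run a median of 562.5 to 916 bp past it, and the start columns of H1f6, H2bc1 and H2ac1 are empty.

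The H1 genes encode linker histones, which bind DNA at the entry and exit of the nucleosome. The peak over the start of H1f4, whose promoter heads the sequences above, was 1787 and 1917 bp wide with dDAVP and 1780 and 1870 bp wide with vehicle, and it ended a median of 916 bp past the gene end. That of H1f3 was 1616 and 1624 bp wide with dDAVP and 1416 and 1616 bp with vehicle. Both genes were covered over their whole body in every library. H1f5, with 1565 and 1617 bp in dDAVP libraries against 1583 and 1594 bp in vehicle libraries, ended 695.5 bp past the gene end, and H1f2, with 1394 and 1579 bp against 1379 and 1424 bp, ended 562.5 bp past it. Upstream these 4 peaks reached a median of 99.5 to 130 bp before the start, so the open stretch lay over the transcribed part and beyond its end.

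H1f1 had another shape. Its start peak was 374 and 523 bp wide in the dDAVP libraries and 333 and 522 bp wide in the vehicle libraries, and the median position of its downstream edge was -438.5 bp relative to the gene end. The widths followed the replicate number, with replicate 2 wider under both treatments. The widest peak within 1 kb of H1f1, 1905 and 1919 bp with dDAVP against 1929 and 1909 bp with vehicle, was the one over the neighbouring H4c1 and H3c1. H1f1 was the H1 promoter without an AC box match.

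H1f6, the testis linker histone, had no peak over its start in any library. Within 1 kb of its ends the widest peak was 81 and 1161 bp with dDAVP and 270 and 0 bp with vehicle. The peaks of the dDAVP libraries belonged to the region of H4c3, and the 270 bp peak of vehicle replicate 1 (chr13:23696076-23696345) lay inside the gene. Its promoter held a CCAAT match and an AC box match and no match to TATAAA. Only these exact letters were searched, so the stretch tatataag in the printed H1f6 sequence did not count. Of the 5 H1 promoters with an open start, H1f1 had no match to AAACACA and H1f2 had no match to TATAAA.

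In 9 divergent H2A and H2B pairs both starts were in the promoter table, 164 to 281 bp apart. One peak spanned both starts in all 4 libraries in 8 of the 9 pairs. For H2ac12 and H2bc12 that peak was 1137 and 1275 bp wide with dDAVP and 1147 and 1099 bp with vehicle, and for H2ac15 and H2bc15 it was 1091 and 1116 bp with dDAVP and 1098 and 1069 bp with vehicle. The mean width over 4 libraries ran from 1024.5 bp (H2bc7 and H2ac7, SD 11.7) to 1164.5 bp (H2ac12 and H2bc12, SD 76.5). The SD was between 6.98 and 27.7 bp in 6 of these 8 pairs.

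The outer edges of the paired peaks sat close to the far ends of the genes. Of 64 edges, 55 (85.9%) lay within 100 bp of the annotated gene end. The other 9 were the 8 edges over the long models of H2bc22 and H2bc23 and 1 edge of H2ac12, which lay 110 bp beyond the gene end in dDAVP replicate 2. Both genes of a pair share the values of its peak. Of the long models, a median of 6.07% of H2bc22 and 11.2% of H2bc23 was covered.

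The pair H2bc1 and H2ac1 forms the fourth block and encodes the testis histones TH2B and TH2A. No peak covered either start. The widest peak near them, at chr13:23933661-23933967 over the far end of H2bc1, was 307 and 180 bp wide with dDAVP and 277 and 168 bp wide with vehicle. A further region inside H2ac1 (chr13:23934528-23934843) held peaks of 222 and 0 bp with dDAVP and 204 and 129 bp with vehicle. The shared promoter, shown above from the H2bc1 side, held 4 CCAAT matches, an octamer and a TATA box match. The promoter of H2bc12, open in every library, holds these motifs too, but at other positions. The TATA box match lay at -94 in H2bc1 and at -198 in H2bc12, relative to the start, and the octamer at -164 and -30. H2bc1 also held an AC box match, at -61, and H2bc12 held none.

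Among the H2A and H2B genes outside the complete pairs, H2ac6 and H2bc4, which stand side by side, shared a peak of 1185 and 1165 bp with dDAVP and 1205 and 1177 bp with vehicle. H2bc9 had start peaks of 628 and 937 bp with dDAVP and 680 and 644 bp with vehicle. The annotated first start of H2bc6 lay in the peak of H1f4, and its second start (position 23585970) had peaks of 587 and 564 bp with dDAVP and 1115 and 625 bp with vehicle. H2ac24 had 1064 and 1075 bp with dDAVP and 1080 and 1198 bp with vehicle, in a sequence nearly identical to another of the block.

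The 7 H3 genes with an annotated start had narrower peaks, with a median of 590 bp over genes. H3c11 had 537 and 512 bp with dDAVP and 530 and 546 bp with vehicle, and H3c2 had 596 and 642 bp with dDAVP and 577 and 611 bp with vehicle. H3c3 shared one peak of 2083 bp with H2bc3 in dDAVP replicate 2, where the other 3 libraries had separate peaks over the 2 genes, and its start peak had a median of 590 bp. H3c6, with 1130 and 1173 bp with dDAVP and 1563 and 1679 bp with vehicle, was the widest of the 7 and its downstream edge lay at a median of -312.5 bp relative to the gene end. H3c1, which has no entry among the promoters, lay wholly inside the peak it shared with H4c1.

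The 11 H4 genes had start peaks with a median width of 761.5 bp over genes. H4c8 had 964 and 971 bp with dDAVP and 971 and 967 bp with vehicle, and its peak ran 385 bp past the gene end. H4c4 had 698 and 974 bp with dDAVP and 673 and 688 bp with vehicle, and ran a median of 107.5 bp past it. The peaks of H4c6 and H4c1 stopped before the gene end, at medians of -25.5 bp and -36.5 bp relative to it. H4c6 was narrow, at 565 and 537 bp with dDAVP and 534 and 535 bp with vehicle.

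H4c1 stood in the peak of H3c1, which was 1905 and 1919 bp wide with dDAVP and 1929 and 1909 bp wide with vehicle and reached a median of 1492.5 bp upstream of the H4c1 start. H4c1 was the H4 promoter without a GGTCCG match, whereas H4c6, whose peak also stopped before the gene end, held one at -46. Among the H4 genes H4c11 varied most between libraries, with start peaks of 1915 and 1752 bp in the dDAVP libraries against 884 and 1642 bp in the vehicle libraries. H4c9 had 455 and 478 bp with dDAVP and 610 and 674 bp with vehicle. H4c18 had 787 and 816 bp with dDAVP and 1153 and 871 bp with vehicle over its start.

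Some members cannot be placed with certainty. The promoters of 5 members, H2bc23, H2ac23, H2ac24, H4c17 and H4c18, shared at least 50% of their 50-base windows with another place, and reads of 50 bases can be assigned to either copy. The promoter of H2bc23 shared 100% of its windows with that of H4bc24, that of H2ac24 shared 73.3% with that of H2bc23, and those of H4c17 and H4c18 shared 94.0% with each other. Without these 5 genes, 47 of 48 members had a gene-end peak in all 4 libraries. Only promoter windows were compared. Sharing in gene bodies, over which body coverage and downstream edges were read, was not examined and may concern other members.

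Whether dDAVP altered accessibility at the histone genes was examined by presence, covered length and width. In both dDAVP and neither vehicle library 0 members had a gene-end peak, and the same held for vehicle alone, against 0.21% and 0.864% of all genes. The number of members with a peak averaged 53 ± 0 with dDAVP and 52.5 ± 0.707 with vehicle (SD, n = 2 each; exact two-sided permutation test, p = 1). With 2 libraries against 2 the smallest possible p is 0.333. For these counts every split gives the same absolute difference, so this test could not decide about dDAVP.

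Called peaks covered 36.9 and 39.5 kb of the 1 kb windows at the member ends with dDAVP and 37.4 and 38.8 kb with vehicle. The means were 38.2 ± 1.80 kb and 38.1 ± 0.956 kb (SD, n = 2 each), a log2 difference of 0.0027 (exact two-sided permutation test, p = 1). The groups overlapped, and replicate 2 exceeded replicate 1 under both treatments although the lists of replicate 2 were shorter. As a share of all covered bases, the histone windows took 0.378 and 0.536 bases per covered kb with dDAVP and 0.282 and 0.523 bases per covered kb with vehicle, 1.17-fold higher with dDAVP (exact two-sided permutation test, p = 0.667), a ratio that also moves with the length of the lists.

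**Figure D4:**
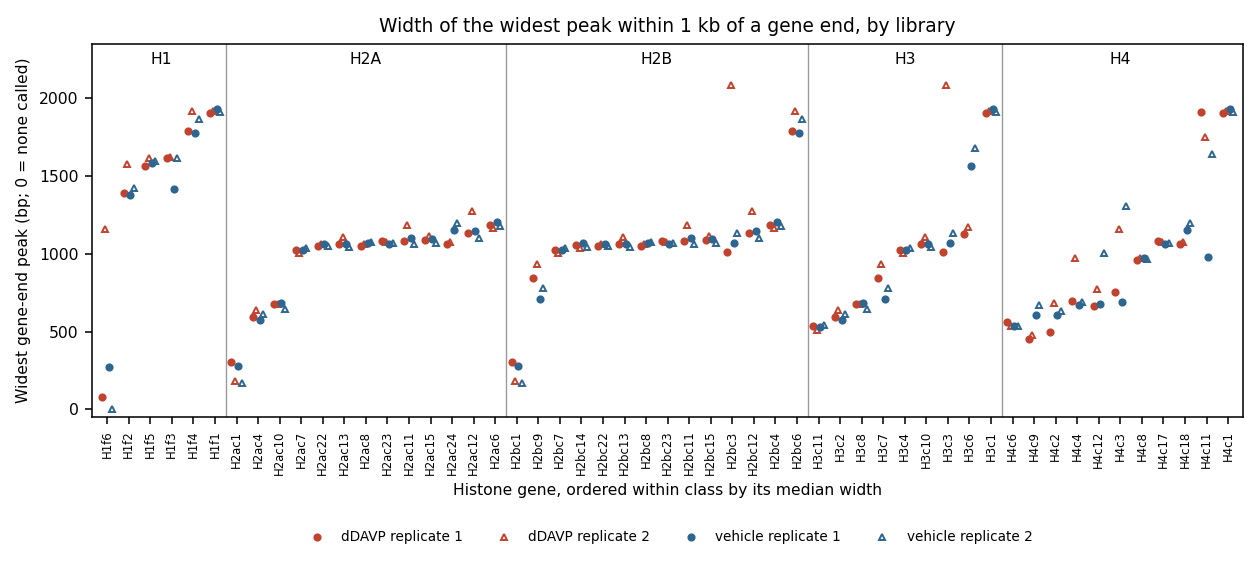
Width (bp) of the widest called peak within 1 kb of either end of each histone gene, 1 point per library, by class and ordered by median; 0 means that no peak was called. Most genes show 4 nearly equal widths, with H2A and H2B genes near their class medians of 1068 and 1071.75 bp, and H1f6, the shared peak of H3c3 and H2bc3, H4c11, H4c3 and H3c6 show the widest spreads, in that order of SD.

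The median of the widest gene-end peak over members was 1055 and 1079 bp with dDAVP and 1065 and 1065 bp with vehicle, against 942 and 955 bp with dDAVP and 936 and 935 bp with vehicle over all genes with such a peak. With limma on quantile-normalized log2 widths of the 14219 genes open in all 4 libraries, 0 genes passed an adjusted p of 0.05 (0%), and 576 (4.05%) had an unadjusted p under 0.05. Of the 52 members in that fit 0 passed and 1 had an unadjusted p under 0.05. The median log2 difference was 0.04 over members and 0.02 over all genes. It depended on single libraries, at 0.08 over members without dDAVP replicate 1, 0.0057 without dDAVP replicate 2, -0.0063 without vehicle replicate 1 and 0.07 without vehicle replicate 2. In simulated data with the same libraries, 0% of genes changed by 1 on the log2 scale and 26% of those changed by 3 were recovered.

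The member with the smallest p was H3c6, narrower with dDAVP by a log2 difference of -0.48 (SE 0.11, limma adjusted p = 0.9998). Next came the pair H2bc1 and H2ac1 with a log2 difference of 0.31 (SE 0.16, limma adjusted p = 0.9998), for which the raw widths of the 2 groups overlap. Both dDAVP widths exceeded both vehicle widths in 11 of the 52 members (21.2%), which share 6 distinct peaks, against 14.9% of all genes in the fit. Both were below in 9 members (17.3%), with 5 distinct peaks, against 14.4% of all genes.

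Peaks of all libraries merged into 432 regions in the interval, 41 of them within 1 kb of a histone gene end. Of those 41, 39 were present in all 4 libraries, against 15.7% of all 560228 merged regions of the genome, and the other 2 were the regions inside H1f6 and H2ac1. The number of these regions was 40 and 39 with dDAVP and 41 and 40 with vehicle (exact two-sided permutation test, p = 0.667). At the histone genes 0 regions were specific to dDAVP and 0 to vehicle, where 1.61% and 3.35% of regions genome-wide were.

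**Figure D5:**
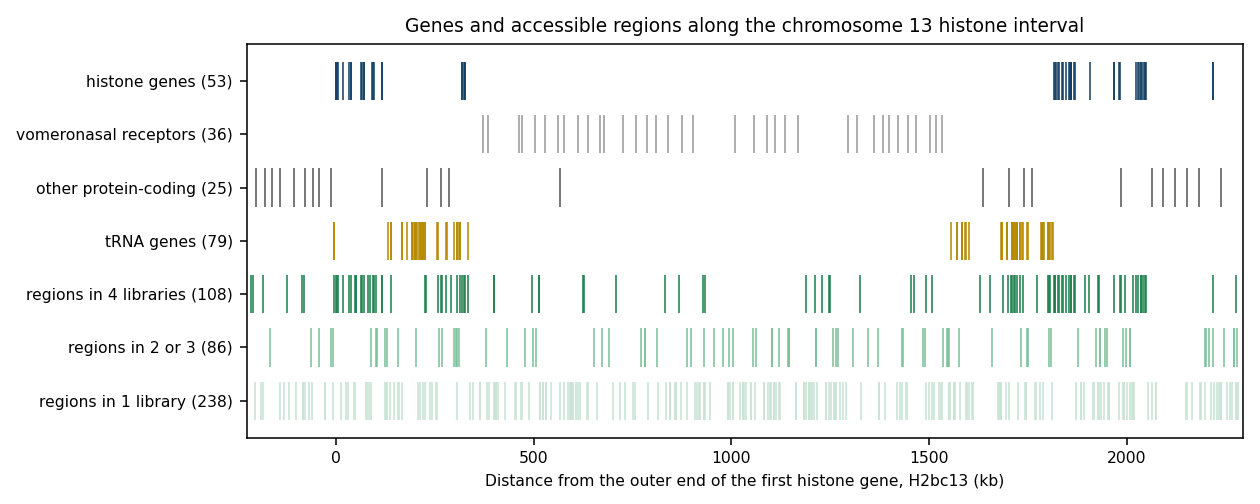
Genes and merged accessible regions along the interval, by distance (kb) from the outer end of the first histone gene. Regions in all 4 libraries stand densest under the histone blocks, with 141 per Mb inside the blocks and 26.3 per Mb outside, and regions of 1 library are spread over the vomeronasal receptor array.

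The histone blocks, 0.369 Mb in all, held 52 of the 108 regions that were present in every library, or 141 per Mb, and the remaining 2.13 Mb held 56, or 26.3 per Mb. The widest such region, at chr13:21733156-21735765 (2610 bp), lay over H4c11. The second, chr13:22229683-22231894 (2212 bp), lay at no member. The third, chr13:23745096-23747189 (2094 bp), joined H3c3 and H2bc3, the fourth, chr13:23760775-23762747 (1973 bp), joined H4c1 and H3c1, and the fifth, chr13:23620773-23622690 (1918 bp), joined H1f4 and the start of H2bc6.

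The interval also holds 79 tRNA genes, which stand close to the histone blocks. Of the 38 regions within 1 kb of a tRNA gene and at no histone gene, 19 were present in all 4 libraries. A single histone region, that of H4c8 (977 bp), lay within 1 kb of a tRNA gene. Of the 432 regions of the interval, 4 were in both dDAVP and neither vehicle library and 8 in both vehicle and neither dDAVP library, all away from histone genes. Genome-wide these patterns made up 1.61% and 3.35% of 560228 regions. In the interval 25 regions were in the replicate 1 libraries alone and 6 in the replicate 2 libraries alone, against 49261 and 6642 genome-wide. Another 7 were in dDAVP replicate 1 and vehicle replicate 2 alone, and 10 in dDAVP replicate 2 and vehicle replicate 1 alone.

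Other protein-coding genes of the interval were open less often than the histone genes. Of 61 neighbouring protein-coding genes 9 had a gene-end peak in all 4 libraries, with 0 of 36 vomeronasal receptors and 0 of 8 olfactory receptors, 3 of 3 zinc finger genes and 6 of 14 others, H4bc24 among them. The 13 replication-dependent histone genes outside chromosome 13 were open in all 4 libraries, with a median widest peak of 2046.5 bp against 1068 bp for the chromosome 13 members. At H2ac18, on chromosome 3, it was 2207 and 2221 bp with dDAVP and 2189 and 2238 bp with vehicle.

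Replacement histone variants, which are made outside S phase as well, had a gene-end peak in all 4 libraries in 10 of 11 cases. H3f3b had none within 1 kb of its annotated ends, although its start in the promoter table lay in a peak in all 4 libraries. Of 22 genes for factors of histone gene expression, 20 were open in all 4, including Npat, Slbp, Hinfp, Casp8ap2 and Pou2f1. At Nfyc (155 bp) and Ldha (122 bp) such a peak was called in 1 library, vehicle replicate 1, while the promoter-table start of each lay in a peak in all 4 libraries.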

How the data were processed

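ATAC-seq libraries of 50000 cells were sequenced as paired-end 50-base reads, following protocols in the labels. Per the submitters' processing notes, cutadapt, Bowtie2, SAMtools, Picard, bedtools, MACS2 and the build mm10 were used; for versions, settings, handling of duplicates, cut-site shift and peak threshold the sources used here give nothing. For each library the authors deposited 1 list of peaks holding positions (chromosome, start, end) and no other value, so heights could not be compared, depth is unknown, and longer lists favour presence.

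Gene ends came from a RefSeq table on GRCm38.p6 without the mitochondrial genome, and strand and starts from its promoter table. A gene was open with a peak within 1 kb of either end; peaks overlapping by 1 bp were merged; coordinates are 1-based. Members with a close neighbour can take its peak as their widest. Members and lists were chosen with earlier results of these data known. Named members were those lacking a peak in a library, the 3 widest and 2 narrowest of each class, those with the 3 smallest p and, of regions, the 5 widest in all libraries; other members (H1f5, H2ac15, H2bc15, H2bc7, H2ac7, H4c4, H4c8, H3c3's neighbour H2bc3 and those in counts) and H2ac18 were chosen after their values were seen. Python 3.11.15, pandas 2.3.3, R 4.3.3 and limma 3.58.1 were used, with Benjamini-Hochberg adjustment over all genes, and steps were tested on simulated data. Treatment and replicate number came from the sample titles; exact two-sided permutation tests (2 against 2) served for library values and limma for widths, without a replicate block, since no label says that replicate numbers pair libraries. Alternatives changed the window, the peaks kept, the normalization, the overlap rule and the libraries included.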

Additional observations from a re-analysis of the deposited data

How the results depend on the processing

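The count of members open in all 4 libraries (52) stayed between 47 and 53 under 10 alternatives, the 46 members with a covered start were unchanged in number under 6, and the width test called 0 members under 13. The 47 was out of the 48 members without a near-identical promoter elsewhere. The 53 came with windows of 2.5 kb and without vehicle replicate 2. The difference in members with a peak (0.5, dDAVP minus vehicle) was -1 with windows of 0.5 kb and 0 with windows of 2.5 kb, with equal list lengths and with peaks at least as wide as the library median; leaving out 1 library gave 0 to 1, the 0 without vehicle replicate 2 and the 1 without vehicle replicate 1 (exact permutation p = 0.333, the smallest possible). The log2 difference in covered bases (0.0027) was -0.018 with windows of 2.5 kb, -0.00066 over whole gene bodies and -0.0015 with wide peaks, and -0.045 to 0.051 when 1 library was left out; without dDAVP replicate 2 it was -0.045 and without vehicle replicate 1 it was -0.023. The cause of these changes was not tested. Of treatment-specific regions in the interval, whose count cannot fall when a library is left out because the rule then asks for less, the 4 for dDAVP became 1 with wide peaks and 8 to 60 without 1 library (33 without dDAVP replicate 1, 60 without dDAVP replicate 2, 14 without vehicle replicate 1, 8 without vehicle replicate 2). The 8 for vehicle became 1 with wide peaks, 5 where a peak had to cover 50% of the region, and 9 to 140 without 1 library (19 without dDAVP replicate 1, 29 without vehicle replicate 1, 140 without vehicle replicate 2). Regions in all 4 libraries numbered 72 to 119 under 7 alternatives. With the replicate number as a block, the differences stayed at 0.5 members and 0.0027, and the width test called 0 members; with 2 pairs the labels give no ground for pairing. The alternatives for covered starts, for the downstream edge by class, for the median width and for near-identical promoters were chosen after seeing the data; 26 to 27 H2A, H2B and H3 peaks stopped before the gene end and 11 to 13 H1 and H4 peaks ran past it when 1 library was left out.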
